A study of Nannochloropsis oceanica with 12 samples.

Results

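A group of 198 genes of the marine alga Nannochloropsis oceanica IMET1 had lower transcript levels in the carbonic anhydrase knockdown line M2 than in the wild type (WT) 12 h after transfer to fresh medium, and higher levels in M2 than in WT at 24 h. The 198 were found among 9756 genes with a measured level, and among 9271 with a group mean of at least 5 FPKM, a unit that divides a gene's fragments by its transcript length and by the mapped total of the library. Each line difference was taken as the log2 of the M2 group mean plus 1 minus the log2 of the WT group mean plus 1, on the FPKM values as deposited. The genes were selected on these 2 measured differences: a gene belonged to the group when this difference was at most -0.3 at 12 h and at least 0.3 at 24 h, with a mean of at least 5 FPKM in any of the 4 groups. The line differences themselves are therefore descriptions here and carry no test.

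Polyadenylated RNA was measured in 4 groups, each with 3 labelled replicates: WT of strain IMET1 at 12 h and 24 h, and M2, an RNA interference line against the carbonic anhydrase CA2 made in the same strain, at 12 h and 24 h. Cultures of both lines received air with 5% CO2 before and after the transfer, so no group was at a lower CO2 level. M2 was the single knockdown line and no line with a control construct was included, so lowered CA2 and any other difference between the lines cannot be told apart. Which ID is CA2 is not stated in the labels or tables, so its level was not checked.

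Carbonic anhydrases speed the interconversion of CO2 and bicarbonate. In algae they are part of the machinery that concentrates inorganic carbon near Rubisco, the enzyme that fixes CO2 in the Calvin cycle. At high CO2 this machinery is usually less needed. Nannochloropsis is known for storing large amounts of oil.

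Which functions the 198 genes have could not be stated. Each of their IDs gives a scaffold and a number, and a RefSeq table of 160 plastid and mitochondrial genes held 0 of the 9756 IDs. They are therefore described by level, time course and place among the listed IDs.

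Of the 12 labelled libraries, 10 entered the group definition: WT 12 h replicates 1 and 2, M2 12 h replicates 1 and 2, and all 3 libraries of each line at 24 h. The third M2 12 h column equalled 0.723 times replicate 1 within 0.1% for 9646 of 9647 genes and was counted as the same library. Its header repeats that of replicate 2, so M2 12 h replicates 1 and 2 were assigned by column order. WT 12 h replicate 3 stood apart from all others. Over all genes, the best correlation of its log2(FPKM + 1) values with another library of its group was r = 0.715. With any of the 10 libraries the best was r = 0.757, to a library of another group. Within groups among the 10 libraries the correlation was 0.992 to 0.997. FPKM summed to between 606886 and 617319 in the 10 libraries and to 780704 in WT 12 h replicate 3. Depth in reads is unknown. Since every group came as a table of its own, effects of table and of group cannot be told apart. Nor can fewer cells with a transcript and less of it per cell, since RNA came from bulk cultures.

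At 12 h the median level over the 198 genes was 17.7 and 18.3 FPKM in WT replicates 1 and 2, and 11.2 and 12.2 FPKM in M2 replicates 1 and 2. At 24 h it was 19.0, 18.55 and 19.1 FPKM in the WT replicates and 25.1, 26.3 and 25.5 FPKM in the M2 replicates. The WT medians at the 2 times lay close together, and the M2 medians lay below them at 12 h and above them at 24 h. Over all 9271 genes with at least 5 FPKM in a group, the medians of the same 10 libraries stayed between 25.2 and 26.5 FPKM. The genes ranged widely in level: group means ran from 2.91 to 689 FPKM in WT at 12 h and from 4.51 to 1141 FPKM in M2 at 24 h.

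The line difference on the log2 scale had a median of -0.51 at 12 h, with a range of -2.95 to -0.30, and a median of 0.43 at 24 h, with a range of 0.30 to 0.90. The decrease at 12 h was larger than the increase at 24 h in 125 of 198 genes. By group mean FPKM, without the added 1, M2 was at least 2-fold lower at 12 h in 15 genes and at least 2-fold higher at 24 h in 1, scaffold00065.g2189. Replicates of the line with the lower level all lay below those of the other line in 187 genes at 12 h and in 195 genes at 24 h. Over all 9271 genes such separation in the same direction occurred in 41.6% at 12 h and 34.5% at 24 h. Because the same values chose the genes, nothing is read from these counts. The median range between replicates of a group was 0.11 to 0.13 on the log2 scale.

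The limits cut through a continuous cloud of genes. The gene nearest to the 12 h limit had a difference of -0.304 inside it and -0.299 outside it, and the nearest at the 24 h limit had 0.3005 inside and 0.2975 outside. Within 0.05 of a limit lay 58 of the 198 genes, and another 74 genes missed a limit by no more than 0.05.

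**Figure D1:**
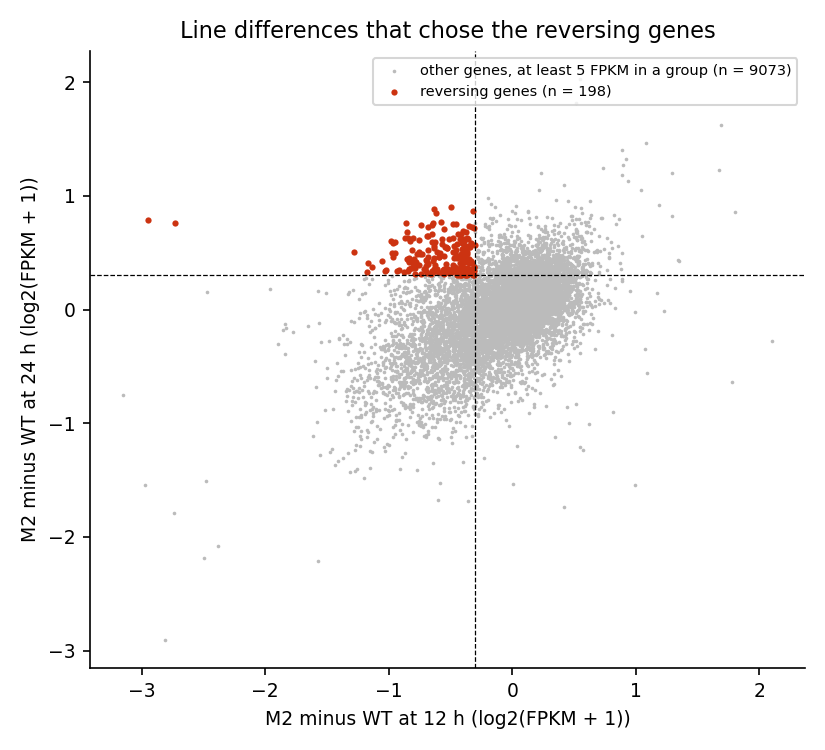
Line difference at 12 h (horizontal axis) against the line difference at 24 h (vertical axis), both M2 minus WT on log2(FPKM + 1), for 9271 genes with at least 5 FPKM in a group. The 198 reversing genes, in red, fill the corner beyond the dashed limits of -0.3 and 0.3, with 2 genes far to the left at -2.95 and -2.73.

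The change from 12 h to 24 h averaged over both lines could be tested as a contrast other than the line differences. It uses the same 10 libraries, and with equal numbers of libraries in both lines at each time its error is unrelated to theirs only where replicates of both lines vary equally. The minimum of 5 FPKM in any group was met through M2 at 24 h alone by 4 of the 198 genes and through WT at 12 h alone by 1. Among the other 193, a subset formed after seeing the data, 156 were called higher and 24 lower. It was fitted to all 9579 genes with a mean of at least 1 FPKM, all 198 included, with limma on log2(scaled FPKM + 1), and called at an adjusted p under 0.05 (2-sided, Benjamini-Hochberg). Most of the reversing genes rose with time: 160 of 198, or 80.8%, were higher at 24 h, compared with 38.0% of the 9271 genes with at least 5 FPKM in a group and 38.8% of all tested. Lower at 24 h were 25 of 198, or 12.6%, compared with 39.1% of the 9271 and 38.1% of all tested, and 13 passed in neither direction. The median change was 0.71 on the log2 scale for the 198 genes, with a median SE of 0.058, and -0.0093 for the 9271 genes. On this log2 scale 57 of the reversing genes were called higher by at least 1, against a background of 4.75%, and 11 lower by at least 1, against 1.16%.

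WT 12 h replicate 3 changed these counts. With it in the fit, where the 12 h groups are of unequal size, 66 of the 198 genes (33.3%) were called higher and 18 (9.09%) lower, against 12.4% and 13.5% of the 9271 genes. The median change of the 198 was then 0.52, and their median SE was 0.294.

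The 160 genes that rose and the 25 that fell had different time courses around a similar line difference. The genes that rose had median group means of 15.7 FPKM in WT and 9.91 FPKM in M2 at 12 h, and of 19.6 FPKM in WT and 27.4 FPKM in M2 at 24 h. M2 at 24 h was the highest group in 159 of these 160. The genes that fell had median group means of 41.8 FPKM in WT and 28.2 FPKM in M2 at 12 h, and of 18.6 FPKM in WT and 24.2 FPKM in M2 at 24 h. WT at 12 h was the highest group in all 25 of these. Over the whole set of 198, M2 at 12 h was the lowest group in 169 and WT at 24 h in the other 29. The rule allows only WT at 12 h or M2 at 24 h as the highest group, and only M2 at 12 h or WT at 24 h as the lowest. The split by time change then largely fixes the highest group, so nothing is read from these counts.

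Taken line by line, the time change had a median of 0.23 in WT and 1.30 in M2 on the log2 scale of deposited FPKM plus 1. These values share libraries with the rule, which forces the M2 change to exceed the WT change by at least the sum of both limits, so they are given without a test. In 87 genes (43.9%) the level was higher at 24 h by at least 0.3 in both lines, against 21.2% of the 9271 genes. In 71 (35.9%) it was higher in M2 while the WT difference stayed within 0.3, against 8.95%. It was lower in WT and higher in M2 in 17 (8.59%), against 0.421%. Lower in WT with M2 within 0.3 were 13 (6.57%), against 7.3%, and lower in both lines were 10 (5.05%), against 15.1%. The rule shapes these shares, so nothing is read from them.

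**Figure D2:**
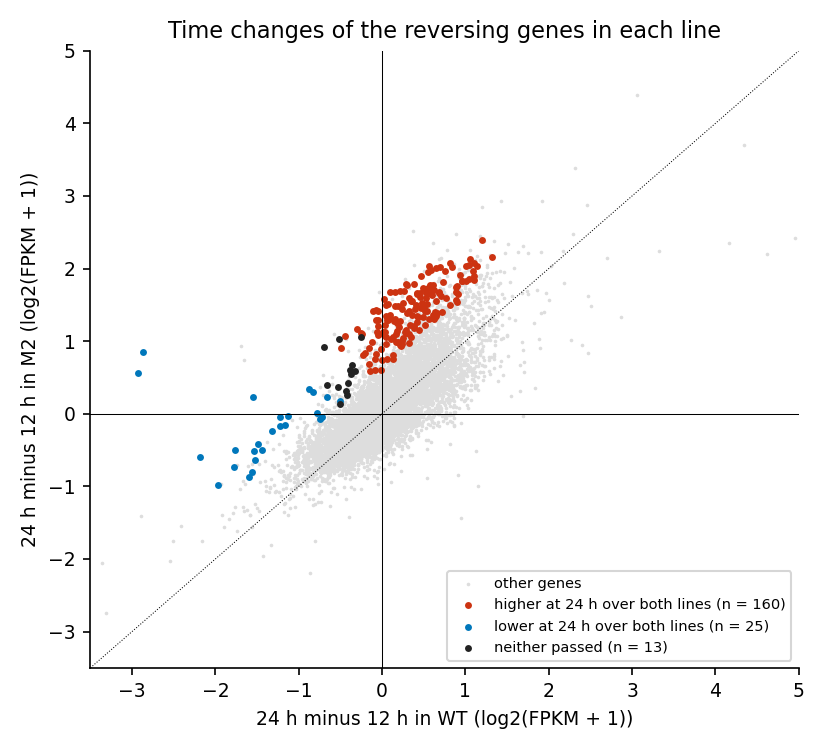
Change from 12 h to 24 h in WT (horizontal axis) against that in M2 (vertical axis), on log2(FPKM + 1), with the dotted line marking equal change. The 160 reversing genes higher at 24 h over both lines (red), the 25 lower (blue) and the 13 that passed in neither direction (black) all lie above the dotted line, as the selection requires, while the other genes (grey) spread along it.

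Among the genes that rose with time, scaffold00112.g3957 had the largest swing, meaning the line difference at 24 h minus that at 12 h. Its levels at 12 h were 21.7 and 18.8 FPKM in WT and 7.80 and 9.07 FPKM in M2. At 24 h they were 19.6, 22.3 and 23.2 FPKM in WT and 25.6, 31.4 and 30.5 FPKM in M2. Among these libraries WT levels overlapped between the times, M2 was below all of them at 12 h, and M2 was above all of them at 24 h. The line difference was -1.17 at 12 h and 0.41 at 24 h on the log2 scale. Averaged over the lines it rose by 0.85 (SE 0.075, limma adjusted p = 7.8e-07).

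The next largest swing of a rising gene was in scaffold00295.g8691, with 31.5 and 26.7 FPKM in WT and 14.8 and 14.3 FPKM in M2 at 12 h. At 24 h it had 30.7, 28.9 and 29.6 FPKM in WT and 47.9, 41.0 and 47.7 FPKM in M2. The WT level in these libraries was again alike at both times, and no M2 library overlapped with them at either. Averaged over the lines it rose by 0.77 (SE 0.058, limma adjusted p = 1.9e-07). In WT 12 h replicate 3 the same gene stood at 410 FPKM, and with that library in the fit the change was 0.08 (SE 0.71, limma adjusted p = 0.96). For scaffold00112.g3957 that library held 40.7 FPKM, and the change with it was 0.63 (SE 0.25, limma adjusted p = 0.11).

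The deepest reversals of all were in a pair of genes that were abundant only in WT at 12 h. Scaffold00247.g6942 had 36.5 and 33.8 FPKM in WT and 3.75 and 3.64 FPKM in M2 at 12 h. At 24 h it had 2.97, 4.71 and 4.12 FPKM in WT and 7.67, 8.11 and 6.73 FPKM in M2. The line difference was -2.95 at 12 h and 0.79 at 24 h, and averaged over the lines on the log2 scale the level fell by 1.04 (SE 0.098, limma adjusted p = 1.4e-06).

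Scaffold00065.g2189 followed the same course, with 21.7 and 25.9 FPKM in WT and 3.14 and 2.31 FPKM in M2 at 12 h. At 24 h it had 1.79, 2.13 and 2.84 FPKM in WT and 3.38, 5.08 and 5.07 FPKM in M2. M2 lay above WT at 24 h in both genes, at levels where the added 1 FPKM shrinks the log2 difference. Averaged over the lines scaffold00065.g2189 fell by 1.21 (SE 0.13, limma adjusted p = 4.4e-06). In WT 12 h replicate 3 this pair held 20.7 and 18.9 FPKM, also above M2, and both falls passed with that library too, at -0.98 (limma adjusted p = 0.00075) and -1.21 (limma adjusted p = 0.00045). After this pair the next deepest difference at 12 h in the set was -1.28.

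**Figure D3:**
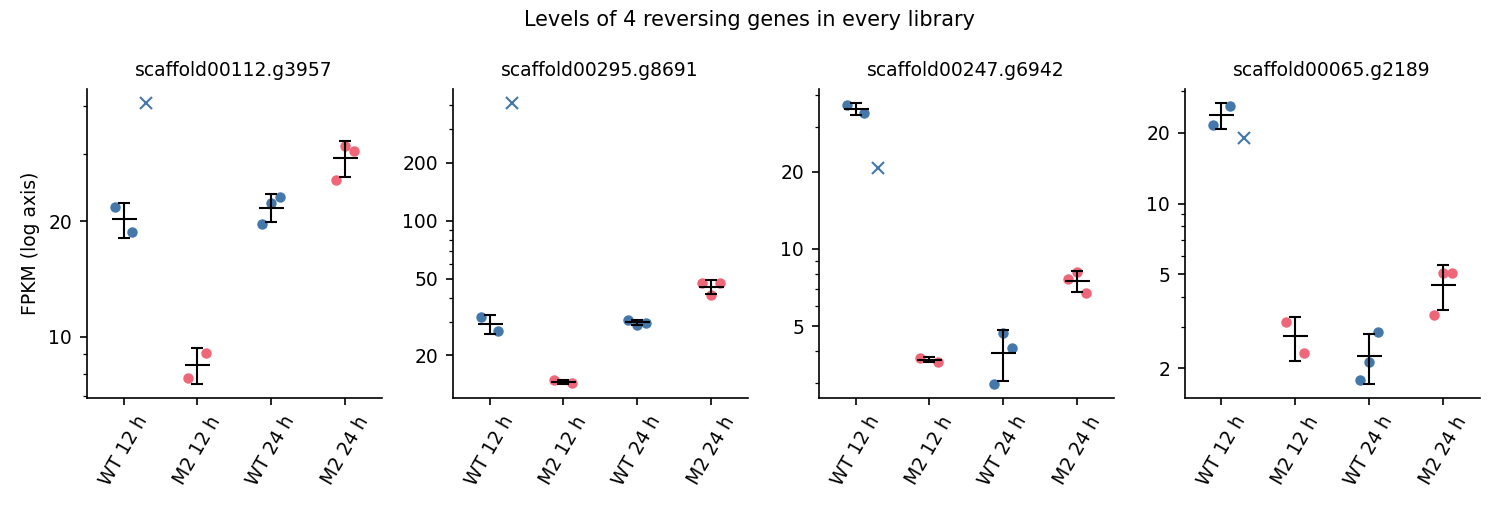
FPKM (log axis) of the 4 named genes in every library of the 4 groups, with the mean and SD as bars and WT 12 h replicate 3, which entered neither, as a cross. In scaffold00112.g3957 and scaffold00295.g8691 the WT points without the cross are level in time, and the M2 points move from below to above them. The cross lies above every other point in these genes. Scaffold00247.g6942 and scaffold00065.g2189 are high in WT at 12 h only.

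The most abundant reversing gene, singled out after its values were seen, had 696 and 681 FPKM in WT and 352 FPKM in both M2 libraries at 12 h. At 24 h it had 830, 814 and 837 FPKM in WT and 1138, 1144 and 1140 FPKM in M2. Among these libraries its replicates were tight beside the gap between lines at each time. WT 12 h replicate 3, however, held 1806 FPKM. The authors' merged 12 h values were 969 FPKM in WT and 1014 FPKM in M2, so they did not show the decrease. Averaged over the lines it was higher at 24 h by 0.94 (SE 0.012, on the log2 scale).

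WT 12 h replicate 3 and the merged columns did not enter the selection, and gave a mixed picture at 12 h. In WT 12 h replicate 3 the median over the 198 genes was 32.9 FPKM, above the medians of the other WT 12 h libraries, while over the 9271 genes its median was 21.8 FPKM, below them. It exceeded both other WT 12 h libraries in 132 of the 198 genes, or 66.7%, compared with 34.0% of the 9271. The median log2 difference from replicates 1 and 2 was 0.99 for the reversing genes and -0.48 for the 9271. Against M2 at 12 h, replicate 3 was above both M2 libraries in 154 of the 198 genes (77.8%) and below both in 40, with 37.2% above among the 9271. The M2 libraries in this comparison were selected as low, so a share above the background is partly fixed by the selection: among the 1120 genes lower in M2 at 12 h only, replicate 3 was above both M2 libraries in 58.0%. In replicate 3, 8 of the 198 genes (4.04%) were listed at 0, compared with 3.74% of the 9271. This is 1 library and gives no test.

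The authors' merged columns, 1 for each group, did not show the 12 h decrease. In the authors' merged values the level in M2 at 12 h was above that in WT for 156 of the 198 genes, or 78.8%. It was lower by at least 0.3 on the log2 scale for 23 (11.6%), against 22.7% of the 9271. The median merged difference at 12 h was 0.59, against -0.51 from the replicate columns. Over the 9271 genes the merged difference was above 0 in 49.4%. At 24 h the merged difference was at least 0.3 in 194 of the 198 genes, against 14.7% of the 9271. Its median over the 198 was 0.43. The merged 24 h columns could be rebuilt from the same replicates that chose the genes. The selection therefore fixed this direction, and nothing is read from it.

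The merged M2 12 h column could not be rebuilt from M2 12 h replicates 1 and 2. It deviated from their best weighted sum by a median of 51.2%. This deviation was 0.0098% for the merged 12 h column of WT, and 8.6e-05% and 8.4e-05% for those of WT and M2 at 24 h. The sums for these other groups used all labelled replicates, so the deviations are not like for like. The remaining M2 12 h column repeated replicate 1, so a labelled M2 12 h library is absent from the columns. Whether its absence accounts for the larger deviation was not tested. In 168 of the 198 genes (84.85%) the merged M2 12 h column exceeded the mean of M2 replicates 1 and 2. It did so in 32.0% of the 9271 genes and in 57.4% of the 1120 lower in M2 at 12 h only. The median difference over the 198 was 1.49 on the log2 scale, against -0.39 over the 9271 genes. M2 replicates 1 and 2 were selected as low, and among the 1120 genes lower in M2 at 12 h only the median was 0.17. The merged WT 12 h column includes WT 12 h replicate 3. Weights in its best weighted sum added to 0.853, with 0.341 on replicate 3. At 24 h they added to 1.002 in WT and 0.999 in M2. Merged and replicate levels of WT at 12 h are therefore not on the same scale. For most of the 198 genes the authors' merged 12 h values thus go against the lower level in M2 in the 4 replicate columns that selected them. The part of replicate 3 and of the merged M2 column in these differences was not tested. For the named pair that fell with time the merged 12 h differences were -2.19 for scaffold00247.g6942 and -2.27 for scaffold00065.g2189, and for the pair that rose they were 1.05 for scaffold00112.g3957 and 0.14 for scaffold00295.g8691.

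The split by time change went with these columns. Of the 160 genes that rose, 145 were higher in M2 in the merged 12 h values and 118 were above both other WT 12 h libraries in replicate 3. Of the 25 that fell, 4 and 6 were. Median merged differences at 12 h were 0.70 for the genes that rose and -0.58 for those that fell. The time change uses the WT 12 h libraries that replicate 3 was compared with, and these also entered the merged WT 12 h column. Genes with low values in these libraries are more readily called higher with time, so part of this association is built in. This split was chosen after the data were seen and was not tested.

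**Figure D4:**
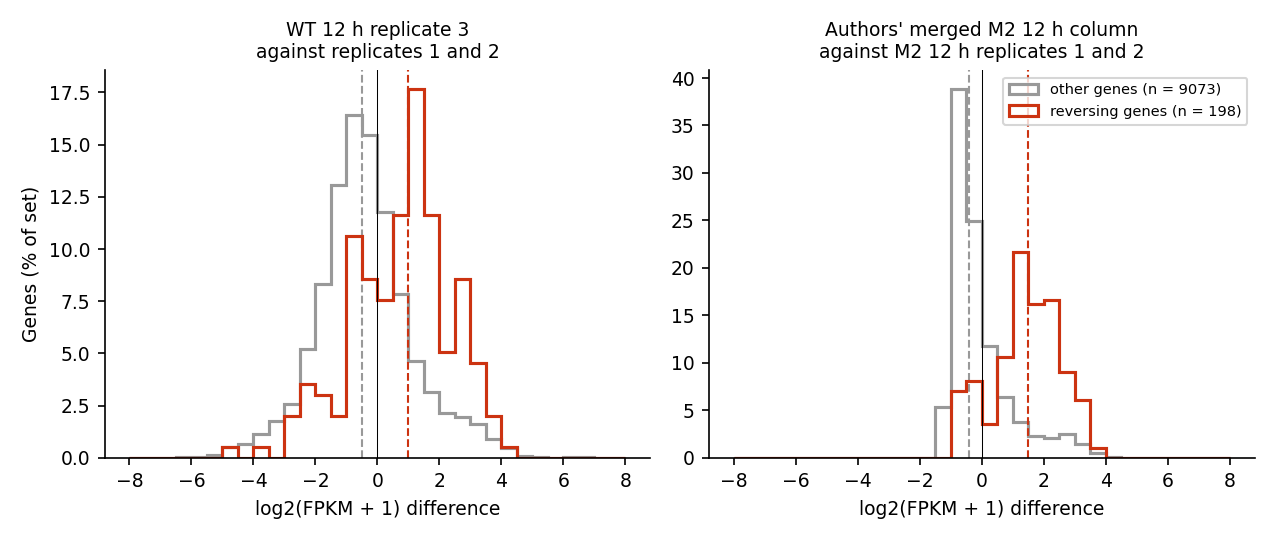
Share of genes (%) by log2(FPKM + 1) difference of WT 12 h replicate 3 from WT 12 h replicates 1 and 2 (left) and of the authors' merged M2 12 h column from M2 12 h replicates 1 and 2 (right). The reversing genes (red) are shifted to the right of the other genes (grey) in both, with medians, dashed, of 0.99 and 1.49.

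A minority of the reversing genes had neighbouring IDs. The 198 lay on 48 of 283 scaffolds, and 37 of them (18.7%) had another of the 198 as the next or previous listed ID on the same scaffold. Most genes have a listed ID on either side, so the share is better read by neighbouring place: 44 of 382 places beside a reversing gene (11.5%) held another, while the set made up 2.03% of all scaffold IDs. The same share was 15.4% for the genes lower at 12 h only, which made up 11.5% of IDs, and 12.9% for those higher at 24 h only, which made up 8.14%. For the 45 genes that reversed from higher to lower, 0.461% of IDs, it was 2.25%, from 2 of 89 places. The 331 listed neighbours that were not reversing genes had median line differences of -0.096 at 12 h and 0.0091 at 24 h, close to the medians of all genes of -0.042 and 0.0037. Whether ID numbers follow position on the scaffold is not stated in the sources used here. Libraries were made without strand information, so reads of overlapping genes cannot be told apart.

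Joining members separated by at most 2 other listed IDs gave 7 stretches of 3 or more, which held 27 of the 198 genes, and 14 pairs. The other 143 stood alone. The longest stretch, on scaffold00295, held 8 reversing genes among the 9 listed IDs from number 8688 to 8698, and another there held 3 of 4 from 8703 to 8706. Scaffold00026 had 4 of 6 from number 1507 to 1512, scaffold00082 had 3 of 4 from 3151 to 3154, and scaffold00007 had 3 of 3 from 304 to 306. In these 5 stretches WT 12 h replicate 3 lay above the other WT 12 h libraries by medians of 2.31 to 3.18 on the log2 scale, and the authors' merged M2 12 h column lay above the M2 12 h replicates by medians of at least 2.63. The remaining stretches, on scaffold00127 and scaffold00330, had medians of 0.68 and -1.14 in that library.

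Scaffold00295 had the most reversing genes, 26 of its 388, or 6.70%. From number 8688 to its last listed ID, 8717, 28 IDs are listed and 13 of them were reversing genes. Group means of the 13 were 4.40 to 52.1 FPKM in WT and 3.08 to 28.5 FPKM in M2 at 12 h, and 5.40 to 53.7 FPKM in WT and 7.21 to 73.6 FPKM in M2 at 24 h. Their line differences were -0.97 to -0.36 at 12 h and 0.36 to 0.75 at 24 h.

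Most of the other genes at this scaffold end differed in the same directions without passing both limits. Of the 28, 27 were lower in M2 at 12 h and 27 were higher in M2 at 24 h. The selection fixes both directions for the 13 reversing genes. Of the other 15, 14 were lower in M2 at 12 h and 14 were higher at 24 h. Among the 15 that were not in the set, 9 met the limit at 24 h and 6 met it at 12 h. All 27 that were tested, the 13 included, were higher at 24 h over both lines (limma, adjusted p under 0.05), compared with 38.8% of all genes tested. The 13 rose by 0.39 to 1.05 on the log2 scale. The 30 listed IDs before number 8688 held 3 reversing genes and had median line differences of 0.049 at 12 h and 0.24 at 24 h, against -0.51 and 0.55 in the 28. The medians of the 28 include the 13 selected genes. This stretch was picked out after its values were seen and was not tested as a group.

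WT 12 h replicate 3 was above both other WT 12 h libraries in 12 of these 13 genes, by a median over the 13 of 2.68 on the log2 scale, and reached 751 FPKM in 1 of them, while the remaining gene was listed at 0. The authors' merged M2 12 h column was above the mean of the M2 replicates in all 13, by 1.71 to 3.46, against 32.0% of the 9271 genes. It was above the merged WT column in 12, against 49.4%. An alternative without the 13 genes was chosen after seeing the data. Of the other 185 genes, 147 rose and 25 fell with time over both lines, against 38.0% and 39.1% of the 9271 genes. In the merged 12 h values 144 of the 185 were higher in M2, against 49.4% of the 9271.

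**Figure D5:**
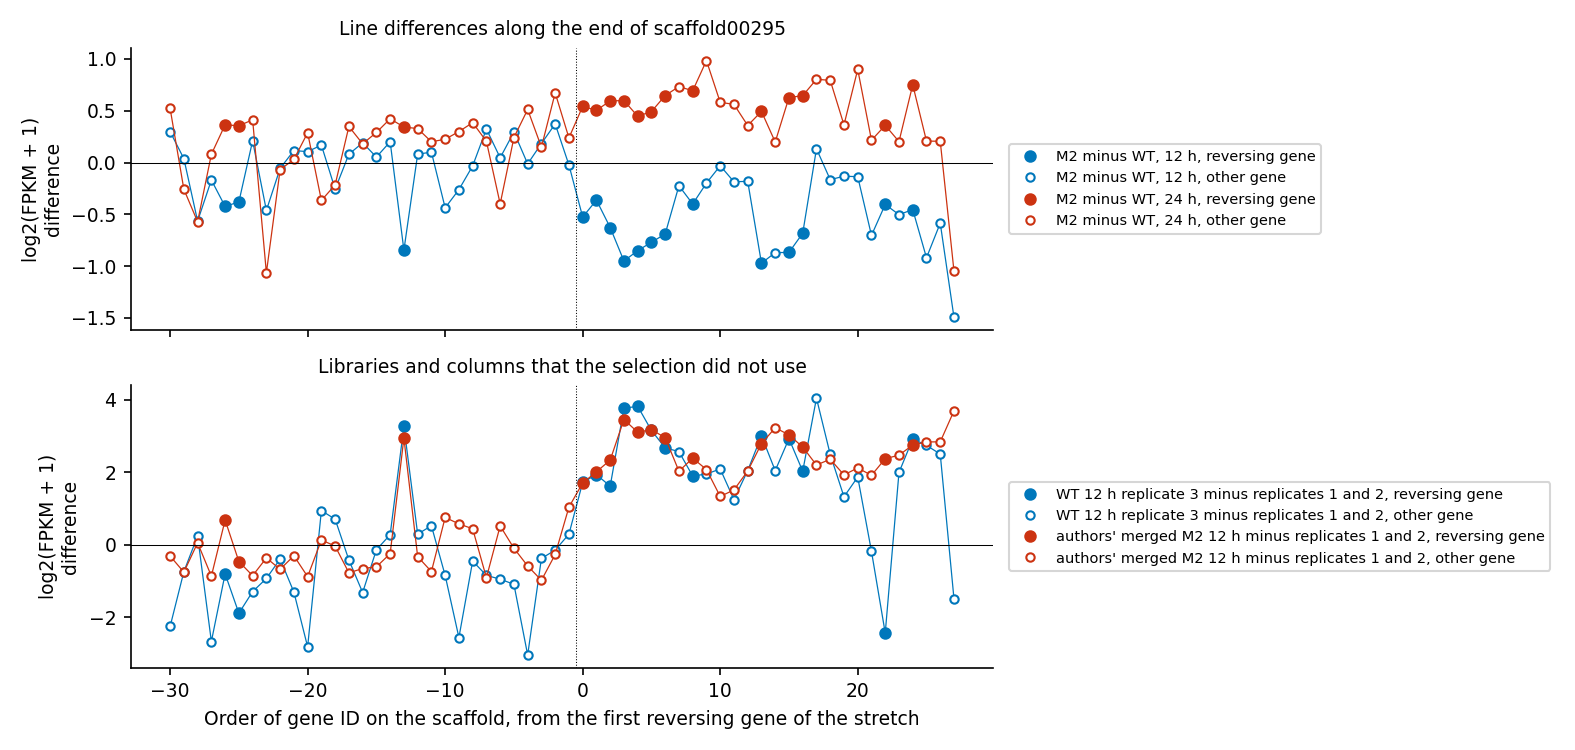
Log2(FPKM + 1) differences for the last 58 listed IDs of scaffold00295, in ID order, with reversing genes filled and other genes open. To the right of the dotted line the M2 minus WT difference is below 0 at 12 h for 27 of 28 IDs (upper panel). It is above 0 at 24 h for 27 of 28 as well. For the filled genes the selection requires both. WT 12 h replicate 3 and the authors' merged M2 12 h column both lie well above replicates 1 and 2 of their groups for most of these 28 IDs (lower panel).

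Reversal in the other sense was met by fewer genes: 45 were higher in M2 by at least 0.3 at 12 h and lower by at least 0.3 at 24 h. Of these 45, 34 (75.6%) were higher at 24 h over both lines, so a rise with time was also common in the opposite reversal. Their median time changes on the deposited scale were 0.82 in WT and -0.0038 in M2, against 0.23 and 1.30 for the 198. Higher at 24 h were 58.9% of the 1120 genes lower in M2 at 12 h only and 28.6% of the 794 genes higher in M2 at 24 h only. The replicate 3 value exceeded both other WT 12 h libraries in 44.4%, 42.1% and 23.9% of these sets, against 66.7% of the 198. These differences between sets are descriptions and were not tested.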

How the data were processed

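Per the labels, the authors deposited FPKM values, with 1 table of replicates per group and, for each time, 1 table holding a merged value for each line. The submitters' processing notes name Cufflinks 2.0.2 and TopHat2 2.0.4. Build and annotation, and any joint normalization of the tables, are not stated there or in the labels. The 198 genes were selected on FPKM as deposited, and the gene set, the tests and the rule for named genes were chosen with earlier results of these data known. For the test, each of 10 libraries was divided by a median-of-ratios factor, genes with a mean of at least 1 FPKM were kept, and log2(scaled FPKM + 1), which understates changes of low genes, was fitted with 1 mean per group in limma 3.58.1 (R 4.3.3, intensity trend, no replicate block). The contrast was 24 h minus 12 h averaged over both lines, 2-sided, adjusted over all genes tested, and the fit was tested on simulated data. WT 12 h replicate 3, which the selection does not use, was left out and then added as an alternative. Named were, among reversing genes called higher and among those called lower with time, the 2 with the largest swing. The labels call the 3 samples of a group biological replicates. The M2 24 h headers write MT, and the columns were assigned by the table's link. The treatment text in the labels also describes another layout, which was not used. The labels name total RNA of whole cells but nuclear RNA as subtype. No count test was run on these FPKM values, and the precision that depth gives is unknown. Python 3.11.15, numpy 2.4.6, pandas 2.3.3 and matplotlib 3.10.9 were used.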

Additional observations from a re-analysis of the deposited data

Results flagged for a closer look

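In WT 12 h replicate 3, a library outside the selection and the main test, 132 of the 198 reversing genes lay above both other WT 12 h libraries. In the authors' merged 12 h columns, which entered no test, 156 of the 198 were higher in M2 than in WT, opposite to the replicate columns. Replicate values of the lines did not overlap at either time, lower in M2 at 12 h and higher at 24 h, in 185 of the 198 genes, against 7.56% of the 9271 genes with at least 5 FPKM in a group. The selection fixes most of this count, and nothing is read from it. The change of direction between the times was not tested, since the selection requires it.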

How the results depend on the processing

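Of the 198 reversing genes, 160 were higher and 25 lower at 24 h over both lines, as were 3721 and 3648 of all genes tested. Including WT 12 h replicate 3 gave 66 higher reversing genes, and 1206 higher and 1252 lower genes in all. The median SE of the 198 rose from 0.058 to 0.294 with it, and scaffold00112.g3957 and scaffold00295.g8691 missed the threshold. Other pseudocounts, filters, scalings and moderation settings kept these counts within 1.5 times, and the median change of all genes was -0.036 to 0.035 on the log2 scale. With the replicate number as a block, 157 reversing genes were higher and 26 lower. Deviations of same-numbered libraries correlated at -0.042 to 0.034, so no shared effect of the replicate number was seen. This cannot show that the samples were unpaired, since deviations in the 12 h groups of 2 libraries mirror each other. Leaving out each library in turn gave 154 to 160 higher and 25 to 28 lower reversing genes, and 3543 to 3646 higher and 3481 to 3647 lower genes in all. A 12 h group left with 1 library was assumed to vary like the other groups. The selection itself gave 189 to 211 genes without single libraries, 123 with a pseudocount of 5, 383 with limits of 0.2 and 39 with limits of 0.5. With WT 12 h replicate 3 in the WT mean it gave 286 genes, of which 165 were among the 198, and on scaled values it gave 194, of which 174 were.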

Other observations

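Reversing genes were listed near scaffold ends more often than other genes. On the 29 scaffolds with at least 100 listed IDs, 35 of 172 reversing genes (20.3%) were among the first or last 20 IDs, compared with 13.7% of all 8448 genes there. Among the first or last 50 IDs were 86 (50%), compared with 34.3%. This was seen after the data were examined, was not tested, and includes the end of scaffold00295.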
